A study of Mus musculus with 6 samples.

Results

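The miRNAs described here are those encoded within the introns of the 3 myosin heavy chain genes Myh6, Myh7 and Myh7b. They were taken by name, as every mature miRNA beginning miR-208a-, miR-208b- or miR-499-, a rule on names that uses no measured value. This gave 5 of the 984 mature miRNAs listed for each library, namely mmu-miR-499-5p, mmu-miR-499-3p, mmu-miR-208a-3p, mmu-miR-208a-5p and mmu-miR-208b-3p, where mmu stands for mouse and is left out below. The libraries were small RNA sequencing libraries of the muscular heart wall (myocardium) of mice, with 3 taken at a post-mortem interval of 6 d and 3 at 0 h. The post-mortem interval is the time from death to sampling, and by its title the series concerns how miRNAs may serve to estimate it. All samples are labelled as the same tissue with no treatment. The sources used here give no strain, age or sex. Nothing in the labels ties the 3 samples of a group to different mice, so each p-value speaks only of the spread among these samples, and that spread may be technical.

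A miRNA is cut from a hairpin precursor, and usually 1 arm, the guide, is loaded into an Argonaute protein while the other, the passenger, is mostly lost. The guide pairs with messenger RNAs mainly through its seed, bases 2 to 8 from the 5′ end. miR-208a, miR-208b and miR-499 are made from introns of myosin genes and can therefore be transcribed together with these genes. Myh6 encodes the fast alpha-myosin that predominates in the adult mouse ventricle, Myh7 the slow beta-myosin of fetal ventricle and slow skeletal muscle, and Myh7b a related slow myosin. In mice miR-208a is needed for the switch toward beta-myosin under cardiac stress, and in human medicine miR-208 and miR-499 in plasma are known as markers of heart muscle injury.

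The mature sequences are shown because the members fall into seed groups. They are from RefSeq, build GRCm38.p6, which held all 5 members, and are written 5′ to 3′ with the seed in capitals.
miR-499-5p: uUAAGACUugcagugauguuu
miR-208a-3p: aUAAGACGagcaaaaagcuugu
miR-208b-3p: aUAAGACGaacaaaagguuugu
miR-208a-5p: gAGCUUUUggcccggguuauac
miR-499-3p: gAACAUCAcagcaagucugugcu
miR-208a-3p and miR-208b-3p have the same seed and are identical at 19 of 22 bases. Counted from 1 at the 5′ end, with the base of miR-208a-3p first, they differ by G10A, A16G and C18U. A read that ends before base 16 tells them apart by base 10 alone, so an error there could assign it to the wrong guide. How the authors' counting treated such reads is not given in the sources used here. The seed of miR-499-5p shares bases 2 to 7 with both and differs from that of miR-208a-3p by G8U. Of the 851 measured miRNAs that matched a RefSeq sequence, no other shared bases 2 to 7 with these 3 guides. The passengers miR-208a-5p and miR-499-3p shared their bases 2 to 7 with none of these 851.

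The hairpins show where the arms lie. The measured arms are in capitals.
Mir499: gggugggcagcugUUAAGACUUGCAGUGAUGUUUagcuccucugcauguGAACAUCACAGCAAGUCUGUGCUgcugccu
Mir208a: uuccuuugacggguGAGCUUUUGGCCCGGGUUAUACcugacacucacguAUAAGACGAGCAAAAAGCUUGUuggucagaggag
Mir208b: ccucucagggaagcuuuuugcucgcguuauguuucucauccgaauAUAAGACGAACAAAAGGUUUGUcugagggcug
In RefSeq's GRCm38.p6, Mir499 lies at chr2:155622880-155622958 on the plus strand. GENCODE places it in intron 19 of the Myh7b transcript Myh7b-201, which has 42 exons. Mir208a lies at chr14:54949060-54949142 on the minus strand, in intron 29 of the Myh6 transcript Myh6-201 with its 39 exons. Mir208b lies at chr14:54975700-54975776 on the minus strand, in intron 31 of the Myh7 transcript Myh7-201 with its 41 exons. The hairpins of Mir208a and Mir208b are separated by 26557 bases. The other arm of Mir208b, miR-208b-5p, has the same seed as miR-208a-5p and was not analysed here. The 3 guides are poor in G and C, with 33.3% for miR-499-5p, 36.4% for miR-208a-3p and 31.8% for miR-208b-3p, against a median of 47.6% over the 407 tested miRNAs with a sequence. Only 2.70% to 9.09% of those had a lower content than a given guide. Across these 407 miRNAs, which share the same 6 libraries and are not independent, Spearman's rho of G and C content with the log2 fold change was -0.17.

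Depth differed, from 617069 to 1889594 miRNA reads per library at 6 d and from 4468547 to 7906557 at 0 h. Values are given as normalised CPM, reads scaled per 1000000 and by a further factor per library, and as reads. A count of 0 allows up to 3 reads, which is 1.91 to 3.97 normalised CPM at 6 d and 0.463 to 0.730 at 0 h. Heart muscle miRNAs were abundant at both intervals. The summed level of miR-1a-3p, miR-133a-3p, miR-208a-3p and miR-499-5p was 113380 to 535890 normalised CPM at 6 d and 256870 to 491590 at 0 h. Most of this sum was miR-1a-3p, with 110060 to 532710 at 6 d and 251640 to 487820 at 0 h. Of the 4, 1 was called higher and 2 lower by the test used below, so the sum does not show their separate changes. Over all tested miRNAs that test called 16% higher and 21.9% lower. Marker lists of other cells differed in direction. The skeletal muscle markers miR-206-3p and miR-133b-3p summed to 1035 to 1859 normalised CPM at 6 d and 86.0 to 101 at 0 h, with both higher by the test used below. The epithelial list summed to 1409 to 2579 at 6 d and 139.4 to 439 at 0 h, with 6 of 7 members higher, and the red blood cell list to 45267 to 95633 at 6 d and 11656 to 15277 at 0 h, with 1 of 3 higher. The liver marker miR-122-5p had 2086 to 23460 at 6 d and 668 to 1406 at 0 h, and was called higher. The endothelial list summed to 25279 to 35076 at 6 d and 56921 to 88648 at 0 h, with 1 of 2 lower, and the fibroblast list to 5371 to 8259 at 6 d and 3501 to 4882 at 0 h, with 1 of 3 lower. No member was called among 2 smooth muscle, 5 leukocyte and 1 tested brain markers, which summed to 27916 to 90469, 655 to 1164 and 54.3 to 539 at 6 d, and to 75146 to 79578, 471 to 627 and 171 to 723 at 0 h. No marker was at 0 in all libraries, and their part in the results below was not tested.

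miR-499-5p, the guide from Myh7b, was the most abundant of the 5 in every library. It had 1284, 867 and 799 normalised CPM in the 6 d libraries, against 1792, 2688 and 4044 at 0 h. The reads behind these values numbered 2017, 655 and 885 at 6 d and 7361, 16160 and 26192 at 0 h. The groups did not overlap, and 0 h replicate 3 was the highest library. Means were 983 ± 263 at 6 d and 2841 ± 1134 at 0 h (SD, n = 3 each). Among the 984 miRNAs it ranked between 38 and 50 at 6 d and between 25 and 38 at 0 h.

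miR-208a-3p, the guide from Myh6, came second in every library. It had 139.4, 47.6 and 50.5 normalised CPM at 6 d, from 219, 36 and 56 reads, against 182, 162 and 261 at 0 h, from 748, 977 and 1691 reads. The groups did not overlap, but 6 d replicate 1 lay close to the lowest 0 h library. Means were 79.2 ± 52.1 at 6 d and 202 ± 52.2 at 0 h (SD, n = 3 each). Its rank was between 115 and 157 at 6 d and between 90 and 111 at 0 h.

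miR-208b-3p, the guide from Myh7, had 28.0, 14.6 and 9.02 normalised CPM at 6 d, from 44, 11 and 10 reads. At 0 h it had 16.8, 28.9 and 48.5, from 69, 174 and 314 reads. The groups overlapped, since 6 d replicate 1 exceeded 0 h replicate 1. Means were 17.2 ± 9.76 at 6 d and 31.4 ± 15.99 at 0 h (SD, n = 3 each).

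The passenger arms were scarce. miR-208a-5p had 9, 0 and 2 reads at 6 d and 16, 35 and 49 at 0 h, or 5.73, 0 and 1.80 normalised CPM at 6 d against 3.89, 5.82 and 7.57 at 0 h. miR-499-3p had 2, 0 and 1 reads at 6 d and 4, 5 and 23 at 0 h, or 1.27, 0 and 0.903 normalised CPM at 6 d against 0.974, 0.831 and 3.55 at 0 h. Both overlapped between the groups, and the 6 d values except that of miR-208a-5p in replicate 1 lay at or under the level that a count of 0 allows.

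**Figure D1:**
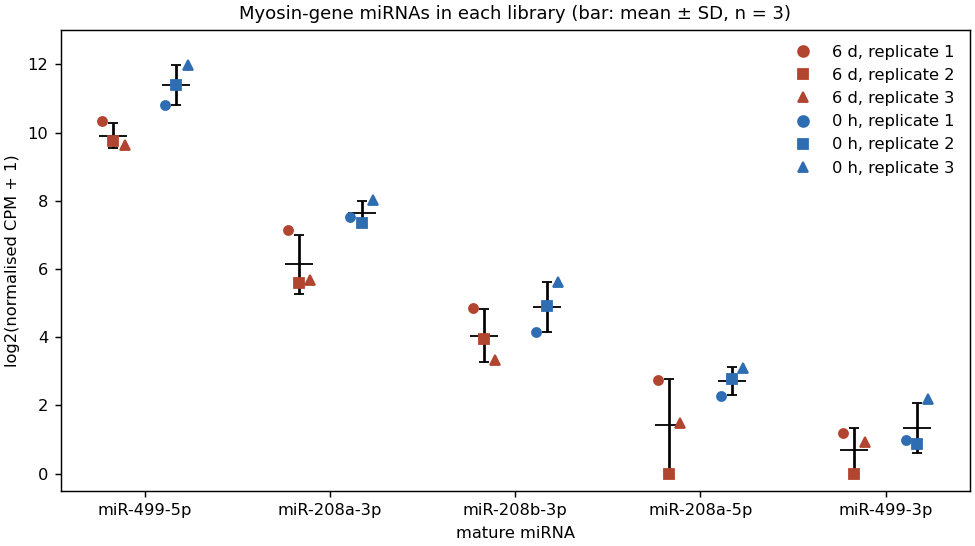
Level of each myosin-gene miRNA on the log2(normalised CPM + 1) scale (vertical axis) in the 3 libraries at 6 d (red) and the 3 at 0 h (blue), with 1 marker shape per replicate number and the mean ± SD in black. The groups are apart for miR-499-5p and miR-208a-3p and overlap for the other 3, and for all 5 the highest library is replicate 1 at 6 d and replicate 3 at 0 h.

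The order of the levels was thus miR-499-5p, miR-208a-3p, miR-208b-3p, miR-208a-5p and miR-499-3p. Each of the first 3 was above the next in both groups with no overlap of the ranges. The ranges of the 2 passengers overlapped at 6 d, where both were at 0 in replicate 2. All are of similar length, 21 to 23 bases, and whole reads were counted, so no correction for length was made. For all 5 the highest 6 d library was replicate 1 and the highest 0 h library was replicate 3. In plain CPM, with library totals alone, replicate 3 was again the highest at 0 h for all 5, but at 6 d miR-499-5p was highest in replicate 3, with 1067, 936 and 1434 plain CPM, and so was miR-499-3p, with 1.06, 0 and 1.62. The 5 miRNAs together held 0.125% ± 0.027 of the miRNA reads at 6 d and 0.263% ± 0.109 at 0 h (SD, n = 3 each).

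The difference between the intervals was tested with limma on log2(normalised CPM + 1) over all 470 miRNAs with at least 1 normalised CPM in at least 3 libraries. A miRNA was called at a Benjamini-Hochberg adjusted p under 0.05. Of the 5 members 4 entered the test, all but miR-499-3p, and 2 were called, both lower at 6 d. Over all tested miRNAs 21.9% were called lower at 6 d and 16% higher. In either direction 37.9% were called. With only 4 tested members, the 2 calls cannot be weighed against these shares. miR-499-5p fell by 1.48 ± 0.38 in log2 units (SE, n = 3 in each group, limma adjusted p = 0.0127). miR-208a-3p fell by 1.49 ± 0.45 log2 units (SE, n = 3 each, limma adjusted p = 0.0241). For both, all 3 libraries at 6 d lay below all 3 at 0 h, which held for 30.9% of the tested miRNAs. The other 2 tested members were not called. The log2 fold change was -0.85 ± 0.52 for miR-208b-3p, with a 95% interval of -2.01 to 0.31 (limma adjusted p = 0.220). It was -1.31 ± 0.65 for miR-208a-5p, with an interval of -2.77 to 0.16 (limma adjusted p = 0.150). For miR-499-3p, which was not tested, the mean of log2(normalised CPM + 1) differed by -0.64. As these are bulk samples and reads are shares of a library, fewer heart muscle cells, less of a miRNA per cell and more RNA of other kinds cannot be told apart.

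**Figure D2:**
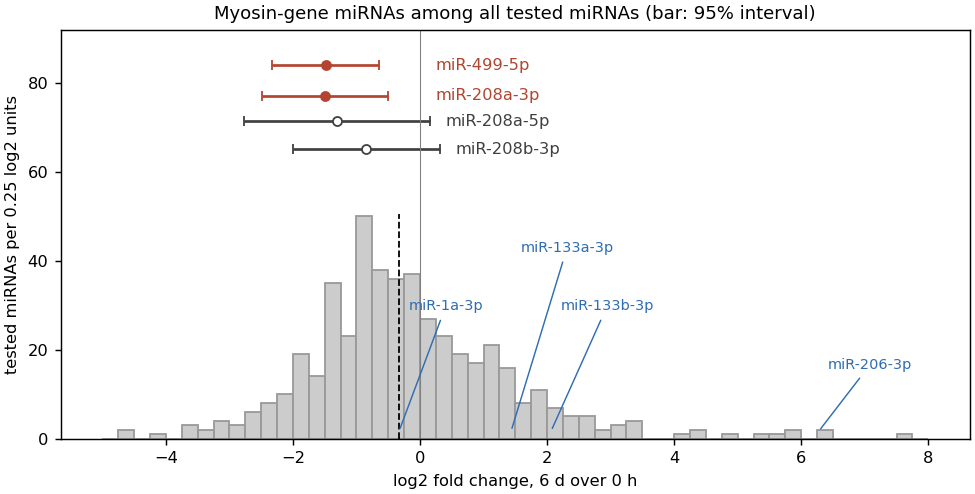
Histogram of the log2 fold change, 6 d over 0 h (horizontal axis), of the 470 tested miRNAs, with their median of -0.33 as a dashed line. Points with 95% intervals above it give the tested myosin-gene miRNAs, filled where called, and blue labels point to other muscle miRNAs. miR-499-5p at -1.48 and miR-208a-3p at -1.49 lie left of the median, and miR-206-3p lies at the far right.

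Within the spread of all tested miRNAs these falls were moderate. Of the 470, 15.5% had a lower log2 fold change than miR-208a-3p, 15.96% than miR-499-5p, 20.6% than miR-208a-5p and 35.1% than miR-208b-3p. The median over all 470 was -0.33, and it shifted to -0.17 with RLE size factors and to 0.02 with library totals alone. Relative to the median of the same scaling, miR-499-5p stood at -1.15, -1.09 and -1.05 in that order, and miR-208a-3p at -1.16, -1.11 and -1.06. The calls did depend on the scaling. With library totals alone the log2 fold change was -1.02 for miR-499-5p (limma adjusted p = 0.113) and -1.04 for miR-208a-3p (limma adjusted p = 0.120), and neither was called. The log2 fold change of miR-208b-3p, not called under any of these scalings, was -0.42 with library totals alone and -0.64 with RLE size factors. With library totals alone 17.6% of the tested miRNAs were called higher and 8.47% lower, and with RLE size factors 19.2% were called higher and 17.9% lower, beside the 16% higher and 21.9% lower above. In plain CPM the groups still did not overlap for either, which held for 15.1% of the tested miRNAs in this direction. For miR-499-5p the values were 1067, 936 and 1434 plain CPM at 6 d and 1647, 2044 and 3588 at 0 h. For miR-208a-3p they were 116, 51.5 and 90.8 plain CPM at 6 d and 167, 124 and 232 at 0 h.

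The 2 calls also differed in how they held when 1 library was left out. miR-499-5p was called in all 6 such fits, with log2 fold changes of -1.78 to -1.19. miR-208a-3p lost its call without 6 d replicate 2 (-1.22, limma adjusted p = 0.087), without 6 d replicate 3 (-1.27, limma adjusted p = 0.060), without 0 h replicate 1 (-1.55, limma adjusted p = 0.065) and without 0 h replicate 3 (-1.29, limma adjusted p = 0.076). Without 6 d replicate 1, the 6 d library with the highest level of all 5 members, it was -1.99 (limma adjusted p = 0.0025). In that fit miR-208a-5p was also called, at -1.98 (limma adjusted p = 0.023), while miR-208b-3p was at -1.25 and not called (limma adjusted p = 0.078). The call of miR-208a-5p rests on 0 and 2 reads at 6 d, both under the level that a count of 0 allows. Count tests on the recovered reads gave a log2 fold change of -1.42 for miR-499-5p (edgeR adjusted p = 0.016) and of -1.25 for miR-208a-3p (edgeR adjusted p = 0.039), where edgeR called 20.7% of its miRNAs lower. With DESeq2 they were -1.32 (adjusted p = 0.0054) and -1.14 (adjusted p = 0.055, not called), where 14.6% were lower. After thinning every library to 617069 reads, miR-499-5p was called in 9 of 10 draws (median log2 fold change -1.12) and miR-208a-3p in 4 of 10 (median -1.21). The balance of calls over all miRNAs also turned, with medians of 77 called higher and 56 lower over the draws. At full depth more were called lower (21.9%) than higher (16%). The scaling factors were computed anew in each draw, so thinning changed depth and scaling together, and their parts in this turn cannot be told apart. Whether thinning acted on miR-499-5p through the scaling or through the counts was not tested.

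**Figure D3:**
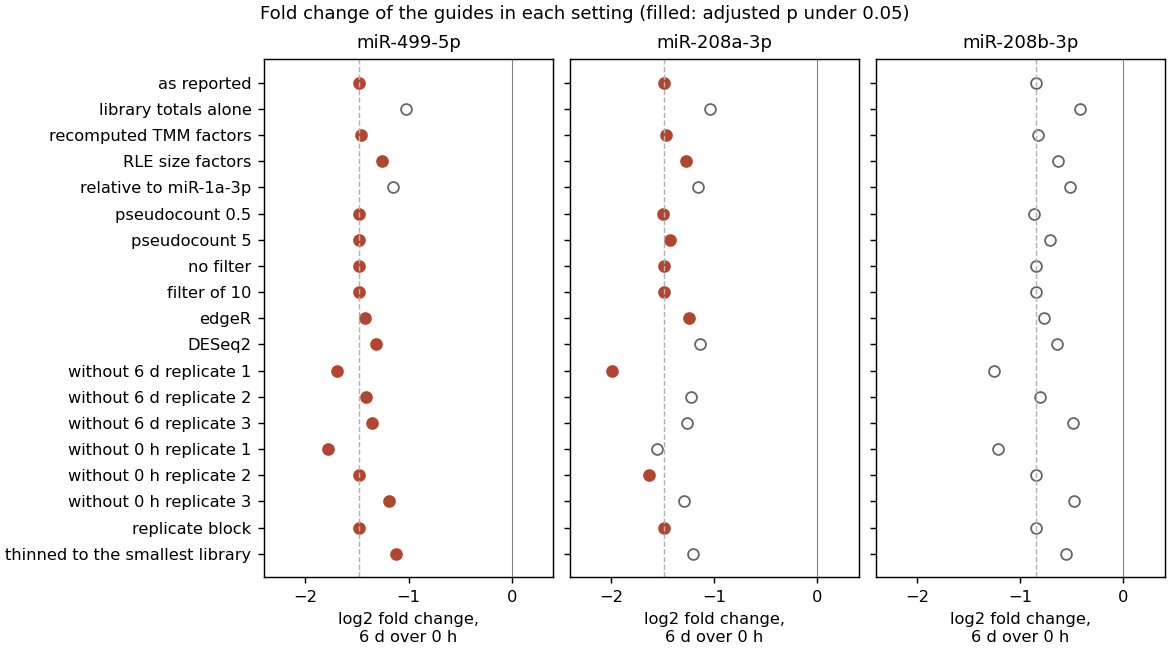
Log2 fold change, 6 d over 0 h (horizontal axis), of the 3 guides in each setting (rows), filled red where the adjusted p was under 0.05, with the reported value as a dashed line. Every point lies below 0, miR-499-5p lacks a call in 2 settings, miR-208a-3p in 8, and miR-208b-3p has none.

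Ratios between miRNAs of the same library do not depend on its scaling. The ratio of miR-499-5p to miR-208a-3p, on reads with 1 read added to each, was 9.17, 17.7 and 15.5 at 6 d and 9.83, 16.5 and 15.5 at 0 h. The log2 ratio averaged 3.77 ± 0.50 at 6 d and 3.77 ± 0.41 at 0 h (SD, n = 3 each), a difference of 0.0026 with an exact two-sided permutation p of 0.9. Leaving out 1 library at a time moved this difference between -0.23 and 0.29. In both groups replicate 1 had the lowest ratio. The smallest p that 3 against 3 libraries allow is 0.1, and 5 ratios were tested.

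The ratio of miR-208a-3p to miR-208b-3p, the products of the alpha- and beta-myosin genes, was 4.89, 3.08 and 5.18 at 6 d and 10.7, 5.59 and 5.37 at 0 h. Its log2 value averaged 2.10 ± 0.41 at 6 d and 2.78 ± 0.56 at 0 h (SD, n = 3 each). The difference of -0.68 had an exact permutation p of 0.1, the smallest possible, and 0.5 after adjustment over the 5 ratios. Leaving out 1 library at a time gave -0.86 to -0.36, with the value nearest 0 without 0 h replicate 1 and the next, -0.44, without 6 d replicate 2. The 6 d values rest on few reads of miR-208b-3p, and with no read added the groups overlapped. miR-208a-3p then made up 83.3%, 76.6% and 84.8% of the reads of both miR-208 guides at 6 d, against 91.6%, 84.9% and 84.3% at 0 h. The 95% Clopper-Pearson intervals, which cover counting error only, spanned 78.2% to 87.6%, 62.0% to 87.7% and 73.9% to 92.5% at 6 d, and 89.4% to 93.4%, 82.7% to 86.9% and 82.7% to 85.9% at 0 h. Replicate 1 at 0 h stood above the other 0 h libraries beyond counting error, since its interval did not meet theirs.

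Together the 3 guides with the shared bases UAAGAC were dominated by miR-499-5p, which made up 91.6% ± 2.73 of their reads at 6 d and 92.1% ± 1.81 at 0 h (SD, n = 3 each). miR-208a-3p made up 6.87% ± 2.40 at 6 d and 6.93% ± 1.93 at 0 h, and miR-208b-3p 1.52% ± 0.441 at 6 d and 0.988% ± 0.136 at 0 h. All 3 shares overlapped between the groups.

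The arms of each hairpin were unequal at both intervals. The 3p arm of miR-499 made up 0.099%, 0 and 0.113% of that hairpin's reads at 6 d and 0.054%, 0.031% and 0.088% at 0 h. The 0 at 6 d came from 655 reads and allows a share of up to 0.562% by its 95% Clopper-Pearson interval. The 5p arm of miR-208a made up 3.95%, 0 and 3.45% of that hairpin's reads at 6 d and 2.09%, 3.46% and 2.82% at 0 h. The log2 ratio of the 5p to the 3p arm of miR-208a differed by 0.46 ± 0.43 (SE, n = 3 each, limma adjusted p = 0.426 over 116 precursors, of which 37.9% were called). The hairpin of miR-499 did not enter this test, since its 3p arm was too low.

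miR-1a-3p, the most abundant miRNA of heart muscle, offers another measure. Its own level was 317670 ± 211420 normalised CPM at 6 d and 345220 ± 125490 at 0 h (SD, n = 3 each), with a log2 fold change of -0.33 that was not called (limma adjusted p = 0.674). The log2 ratio of miR-499-5p to miR-1a-3p was -8.70, -8.48 and -7.11 at 6 d and -7.37, -7.50 and -5.96 at 0 h. The groups overlapped through 6 d replicate 3, and the difference of -1.15 had an exact permutation p of 0.3. The log2 ratio of miR-208a-3p to miR-1a-3p was -11.9, -12.6 and -11.1 at 6 d and -10.7, -11.6 and -9.91 at 0 h, a difference of -1.15 with overlapping groups (exact permutation p = 0.2). For miR-208b-3p the log2 ratios were -14.2, -14.3 and -13.4 at 6 d and -14.1, -14.0 and -12.3 at 0 h, a difference of -0.47 (exact permutation p = 0.5). Adjusted over the 5 ratios, these p-values were 0.5 for miR-499-5p and miR-208a-3p and 0.625 for miR-208b-3p. With 1 library left out the difference ranged from -1.64 to -0.66 for miR-499-5p and from -1.57 to -0.75 for miR-208a-3p, and in both it was nearest 0 without 0 h replicate 3. For miR-208b-3p it ranged from -0.77 to 0.10, and was above 0 only without that library. With every miRNA set relative to miR-1a-3p, limma called 2.77% of them lower and none of the members.

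**Figure D4:**
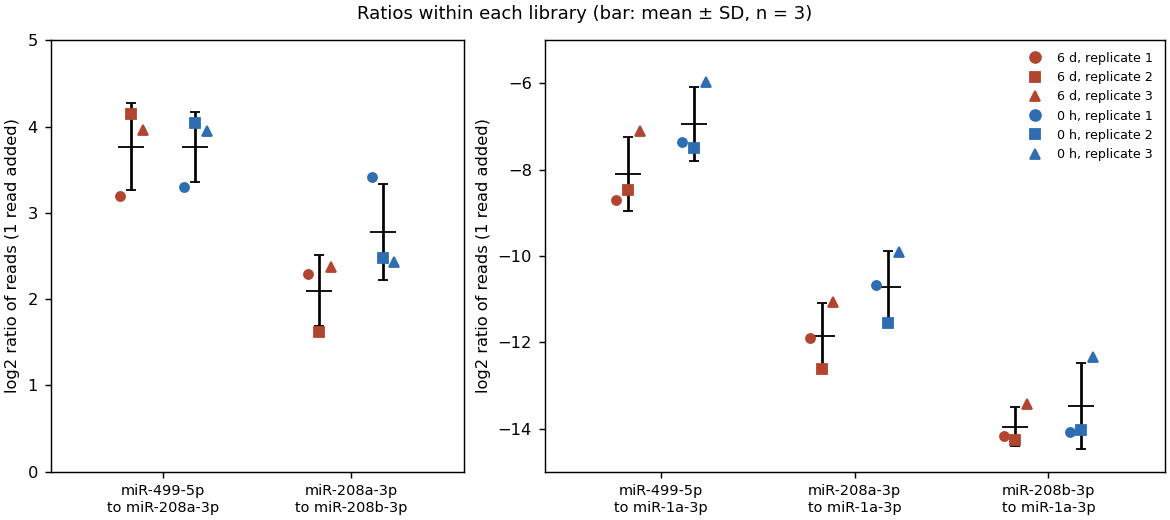
Log2 ratios of reads within each library (vertical axes), with 6 d in red left of 0 h in blue, 1 marker shape per replicate number and the mean ± SD in black. The ratio of miR-499-5p to miR-208a-3p is 3.77 in both groups, and the ratios to miR-1a-3p overlap between the groups.

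The other muscle miRNAs differed among themselves in direction. The list was made up of the arms of miR-1a, miR-133a, miR-133b and miR-206, and of 5p arms of miR-486a and miR-486b, a miRNA also abundant in red blood cells. Of the 9 measured members 8 were tested, and 4 were called higher and 1 lower, beside 16% higher and 21.9% lower over all tested miRNAs. The median log2 fold change of the tested members was 0.53 against -0.33 over all tested miRNAs. The rises were of miR-206-3p (6.27 ± 0.38), a miRNA of skeletal muscle, of its neighbour miR-133b-3p (2.06 ± 0.32), of miR-133a-3p (1.43 ± 0.31), which acts in heart and skeletal muscle, and of miR-1a-1-5p (1.33 ± 0.42, from 15 reads in all at 6 d), with limma adjusted p of 5.4e-06, 0.0011, 0.0069 and 0.031. miR-133a-5p fell by 1.83 ± 0.41 (limma adjusted p = 0.0077). All 5 had the same sign with library totals alone, with RLE size factors and relative to miR-1a-3p. The 5p arms miR-486a-5p and miR-486b-5p, whose near-identical reads cannot be told apart, had a log2 fold change of -0.27 and were not called. Their 3p arms, which were not in the list, were called lower, miR-486a-3p at -1.79 (limma adjusted p = 0.0041) and miR-486b-3p at -1.66 (limma adjusted p = 0.036). Guides that act in heart muscle thus stood on both sides, though miR-133a-3p, on the rising side, acts in skeletal muscle as well. miR-133a-3p had 2270 ± 453 normalised CPM at 6 d and 838 ± 142 at 0 h, while miR-499-5p had 983 ± 263 at 6 d and 2841 ± 1134 at 0 h (SD, n = 3 each).

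A second list held miRNAs that, like these 5, lie within protein-coding host genes, such as miR-126a in Egfl7 of endothelium and miR-378a in Ppargc1b. Of 60 measured members 49 were tested, and 11 were called higher and 13 lower, beside 16% higher and 21.9% lower over all tested miRNAs. The median log2 fold change of the tested members was -0.39, close to the -0.33 of all tested miRNAs. Among the called members with a mean of at least 1000 normalised CPM, miR-30c-5p (-3.03), miR-151-3p (-2.30), miR-126a-3p (-1.33) and miR-26a-5p (-1.25) were lower at 6 d. miR-16-5p (1.93), miR-26b-5p (1.41) and miR-25-3p (1.32) were higher. miR-16-5p and miR-30c-5p also have a copy at another locus, so their values cannot be assigned to the listed host genes alone.

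The miRNAs whose levels ran most nearly parallel were sought by Pearson's r on log2(normalised CPM + 1) over the 6 libraries, among the tested miRNAs with a mean of at least 10 normalised CPM. The 6 libraries form 2 groups, so r reflects the difference between the intervals as well as the spread within them, and it is given as a description. For miR-499-5p, out of 274 candidates, these were the endothelial miR-126a-3p (0.99), miR-28a-5p (0.99) and miR-27b-3p (0.98). For miR-208a-3p they were miR-152-5p (0.98), miR-450a-5p (0.98) and miR-26a-5p (0.97). For miR-208b-3p they were miR-450a-5p (0.88), miR-499-5p (0.87) and miR-130a-3p (0.86), and for miR-208a-5p miR-29b-3p (0.94), miR-215-5p (0.94) and miR-151-5p (0.93). The 2 called guides correlated with each other at 0.91, so miR-208a-3p ranked 21 among the candidates for miR-499-5p, and miR-499-5p ranked 15 for miR-208a-3p. None of the closest miRNAs of either called guide was a muscle miRNA of the list above.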

How the data were processed

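The 6 libraries, 3 per interval, are small RNA sequencing of mouse heart muscle. The submitters' processing notes name STAR 2.5.3a, cutadapt 2.8, Trimmomatic 0.39 and FastQC without their roles, and the sources used here give no counting tool, annotation or build. For 0 h replicate 1 the authors deposited raw counts of reads, while the other 5 deposited files hold log2(x + 1) values of scaled reads with 3 decimals, where x is a whole multiple of 1 step per library. This held within rounding (0.0005 on the log2 scale) for all 2692 nonzero values that could be tested, and 418 could not. Above these, rounding leaves an error of 0.0347% in the reads. The counts were put on the scale of the others with a derived factor of 0.919, so that all factors multiply to 1. The main test was limma 3.58.1 (trended, robust) on log2(value + 1), which understates changes of low miRNAs. Alternatives were edgeR 4.0.16 and DESeq2 1.42.0 on recovered reads, other scalings, pseudocounts, filters, thinning, a replicate block and leaving out libraries. Steps were checked on simulated data, where the limma check scaled the counts with the factors they were made with. That check therefore does not cover the choice of scaling. The members, lists and tests were chosen with earlier results of these data known. Named miRNAs are the members, the muscle list, the 3 closest patterns of each tested member, and called host-gene miRNAs with a mean of at least 1000 normalised CPM. In the host-gene list the 3p arms of copies at other loci (miR-16-1-3p, miR-30c-2-3p) were left out, while the 5p arms cannot be told apart by locus. The labels mention no molecular identifiers, so intervals and floors cover counting error only.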

Additional observations from a re-analysis of the deposited data

How the results depend on the processing

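Both called members were lower at 6 d in every setting run. Relative to miR-1a-3p, 40 miRNAs were called in place of 178, and leaving out 1 library gave 114 (0 h replicate 1 out) to 179. The log2 fold change of miR-499-5p lost its call with library totals alone (-1.02) and relative to miR-1a-3p (-1.15). That of miR-208a-3p lost it in the same settings (-1.04 and -1.16), with DESeq2 (-1.14) and after thinning (-1.21), and ranged from -1.99 to -1.22 with 1 library left out. Such fits gave -1.98 (called, 6 d replicate 1 out) to -0.60 for miR-208a-5p, -1.25 to -0.48 for miR-208b-3p, and 21 (without 0 h replicate 1) to 39 for the 44 called arm ratios. The difference in the log2 ratio of miR-499-5p to miR-208a-3p, near 0 throughout, was -0.022 after thinning and -0.23 to 0.29 with 1 library left out. That of miR-208b-3p to miR-1a-3p ranged from -0.77 to 0.10, which was without 0 h replicate 3. The cause was not tested. A filter of 10 left miR-208a-5p untested, and miR-499-3p was tested with no filter, library totals alone, DESeq2 and in 8 of 10 thinned draws, with no call. The replicate block called 195 miRNAs and changed no member's call. The pairing rests on a number alone: libraries with the same number had deviations from their group means that correlated at only 0.068, 0.064 and 0.273, and not every library correlated best with its own number. Few reads lie behind the 6 d values, with 3, 11 and 65 in all for miR-499-3p, miR-208a-5p and miR-208b-3p. For miR-208b-3p the 0 h libraries also differed beyond counting error.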
